A study of Homo sapiens with 12 samples.

Results

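Axon guidance ligands and their receptors were examined in SH-SY5Y, a line of human neuroblastoma cells that carry many features of immature sympathetic neurons. The genes were chosen by symbol: every semaphorin, plexin, neuropilin, ephrin, Eph receptor, netrin, UNC5 or DCC receptor, slit and roundabout (ROBO) gene with at least 50 counts summed over 12 libraries. Of 68 symbols that matched, 58 passed and are the members described here, among 60710 rows in all, with 33 ligands and 25 receptors. Cells in 6-well plates were treated for 5 h with 5 µM HPPE, 5 µM zinc protoporphyrin (ZnPP), 5 µM tin protoporphyrin (SnPP) or the solvent alone (DMSO, 10 µL in 2 mL of medium), with 3 libraries in each of the 4 groups. RNA was sequenced and reads were counted per gene. ZnPP and SnPP share a protoporphyrin ring and carry a different metal, and both are known as inhibitors of heme oxygenase. HPPE is named by its code in the labels, and its structure is not given in the sources used here. The labels do not say whether the 3 libraries of a group came from separate cultures, so the p-values measure the spread between these libraries, which may be technical.

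Axon guidance works through secreted or membrane-bound cues that growth cones read as attraction or repulsion. Semaphorins act mostly through plexins, with neuropilins as co-receptors for class 3 semaphorins; ephrins bind Eph receptor tyrosine kinases on neighbouring cells; netrins bind DCC and UNC5 receptors; slits bind ROBO receptors. In the sympathetic lineage, from which neuroblastoma arises, these systems are known for steering migrating neural crest cells and growing sympathetic fibres.

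The promoters of EPHA2 and SLIT3 are shown because these members, a receptor that rose and a ligand that fell, carried the clearest changes described below. Both sequences are the 250 bases before the RefSeq start in GRCh38.p14, read 5′ to 3′ on the minus strand, from chr1:16156070-16156319 for EPHA2 and chr5:169301140-169301389 for SLIT3. Capitals mark a full cyclic AMP response element, TGACGTCA, found from 51 to 44 bases before the EPHA2 start.
EPHA2: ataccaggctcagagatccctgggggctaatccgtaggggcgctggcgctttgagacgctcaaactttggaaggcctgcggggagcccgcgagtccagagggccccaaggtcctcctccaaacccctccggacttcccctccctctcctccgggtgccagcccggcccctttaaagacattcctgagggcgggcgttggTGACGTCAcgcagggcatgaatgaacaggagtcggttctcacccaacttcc
SLIT3: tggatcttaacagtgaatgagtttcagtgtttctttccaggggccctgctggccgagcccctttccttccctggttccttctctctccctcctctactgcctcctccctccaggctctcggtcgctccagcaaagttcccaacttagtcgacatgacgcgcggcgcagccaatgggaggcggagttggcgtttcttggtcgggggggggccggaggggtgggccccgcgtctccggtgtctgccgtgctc
The EPHA2 stretch had a GC content of 63.2% with 15 CpG sites, and the SLIT3 stretch 62.8% with 16. Of the members, 48 had a promoter in the RefSeq table. The core of the antioxidant response element, TGACNNNGC on either strand, was present in 7 of these 48 (14.6%), namely EFNA4, EFNA5, EFNB2, SEMA3B, SEMA6D, SLIT1 and SLIT2, against 10.9% of all 35116 promoters. The AP-1 site TGANTCA was present in 1 of 48 (2.08%), PLXNC1, against 6.57% of all promoters. The element TGACGTCA, searched for after the sequences had been seen, was present in 3 of 48 (6.25%), EPHA2, SEMA3B and SEMA4C, against 1.65%. The SLIT3 stretch held none of these letters, and a match is a description of the sequence and not a binding site.

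The libraries held between 1337028 (ZnPP replicate 1) and 9145399 counts (SnPP replicate 2), and members made up 0.490% to 0.618% of each. With 3 counts taken as the floor of a library, the floor lay between 0.328 and 2.24 counts per 1000000 counts of the library (CPM). The floor uses the raw total of each library, whereas the CPM levels of genes use library sizes scaled by edgeR's TMM method. This floor covers counting error only; the 95% intervals of fold changes below come from the fit and include the spread between libraries. HMOX1, the heme oxygenase-1 gene, which responds to porphyrins and oxidative stress, checked the treatments: it stood at 5.42, 4.62 and 7.66 CPM in DMSO, at 332, 365 and 358 CPM after HPPE, at 67.8, 43.3 and 29.8 CPM after ZnPP, and at 7.97, 7.20 and 6.96 CPM after SnPP. HPPE replicates 2 and 3 differed least of all pairs within a group (chi-square per degree of freedom 1.11, against 1.49 to 17.4 for the other pairs), but still beyond sampling noise, and were kept as separate samples. Libraries also differed in how their counts followed transcript length: the Spearman correlation across genes of a library's deviation from the mean of all 12 libraries with length ran from -0.54 in SnPP replicate 1 to 0.57 in ZnPP replicate 3.

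In the solvent control, UNC5B, SLIT3 and the plexins PLXNA2 and PLXNA4 had the highest levels per length, and the netrin NTN1 and its receptor DCC held few counts. Per kilobase of the longest annotated transcript, UNC5B, a netrin receptor of the repulsive kind, had the highest level at 113.9 ± 8.90 CPM per kb (SD, n = 3). SLIT3, a secreted ROBO ligand, came next at 66.7 ± 8.12 CPM per kb, then the semaphorin receptor genes PLXNA2 at 60.5 ± 9.98 and PLXNA4 at 49.4 ± 9.44 CPM per kb. The DMSO libraries of SLIT3 and PLXNA2 overlapped, as did those of PLXNA2 and PLXNA4, so the order of these neighbours is not set beyond their spread, whereas each UNC5B value lay above every SLIT3 value. Among ephrins, EFNA2 led the A class at 37.0 ± 4.19 CPM per kb and EFNB3 the B class at 25.5 ± 3.08. Among semaphorins, SEMA3C led the secreted class 3 at 36.4 ± 1.93 CPM per kb and SEMA4C the membrane-bound classes at 22.9 ± 2.60. ROBO1 was the highest slit receptor, at 17.5 ± 2.28 CPM per kb, and NRP1, a neuropilin that binds class 3 semaphorins and VEGF, stood at 13.01 ± 1.59. EPHB4 (12.04 ± 0.32 CPM per kb) and EPHA2 (11.7 ± 1.90) were the highest of their receptor classes and overlapped each other. NTN3 led the netrins at 8.01 ± 2.17 CPM per kb, and NTN1, the classical attractant, was the lowest member at 0.14. DCC, its attractive receptor, was not a member, with 20 counts over the 12 libraries.

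**Figure D1:**
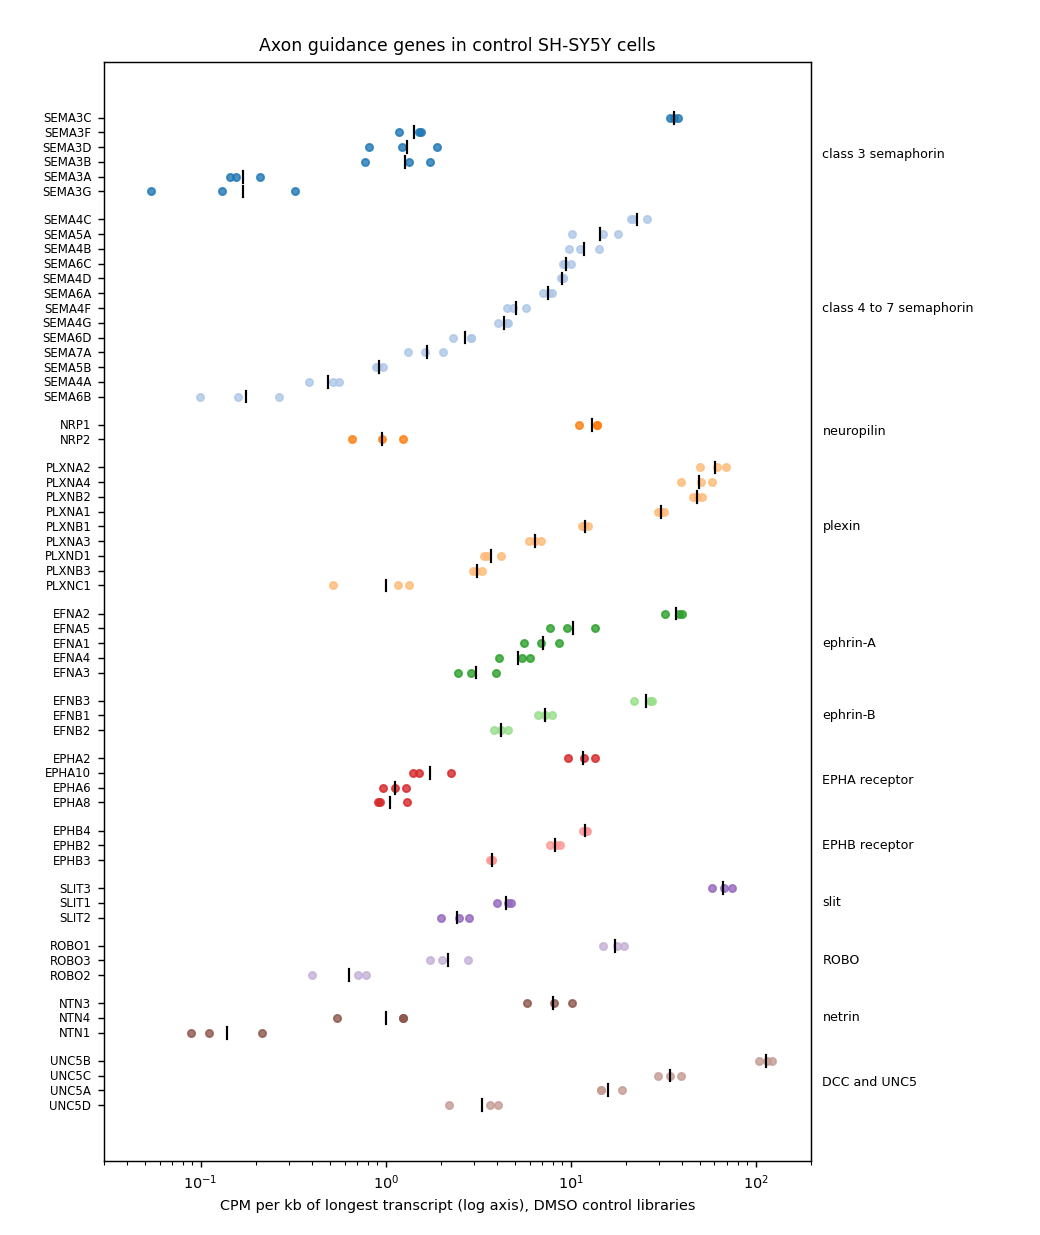
Level of each of the 58 members in the 3 DMSO libraries, in CPM per kb of transcript on a log axis. Members are grouped by class and ordered by their mean within each class. UNC5B and SLIT3 have the highest means, at 113.9 and 66.7 CPM per kb, and NTN1 the lowest, at 0.14.

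The 10 symbols that missed the minimum of 50 counts were mostly Eph receptors: EPHA1 (33 counts), EPHA3 (1), EPHA4 (1), EPHA5 (1), EPHA7 (2), EPHB1 (47) and EPHB6 (40), along with DCC (20), ROBO4 (35) and SEMA3E (43). Just inside the minimum were SEMA6B with 51 counts and SEMA3G with 52, and just outside it EPHB1 and SEMA3E. All 13 class 4 to 7 semaphorins and all 9 plexins were members, against 4 of 9 EPHA genes. SEMA6B and SEMA3G did not pass the filter on low counts, which left 56 members tested.

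HPPE changed few guidance genes, and in both directions, whereas each metal porphyrin changed 1. A gene was called where its adjusted p was under 0.05 in edgeR's quasi-likelihood test, with Benjamini-Hochberg adjustment over all 16366 genes tested. Against DMSO, 5 of 56 members (8.93%) were called after HPPE, 2 higher (EPHA2 and PLXND1) and 3 lower (SLIT3, SEMA5A and PLXNA1); over all genes tested 4.04% were called, 2.57% higher and 1.47% lower. After ZnPP 1 of 56 (1.79%) was called, EPHA2, which was higher, beside 2.25% of all genes, 1.84% higher and 0.415% lower. After SnPP 1 of 56 (1.79%) was called, again EPHA2, higher, beside 2.28% of all genes, 1.9% higher and 0.379% lower. No member was called lower after ZnPP or SnPP by edgeR or DESeq2, while 2 and 1 members, respectively, were lower at an unadjusted p under 0.05 in edgeR. The share called was therefore near that of all genes after ZnPP and SnPP and about 2 times it after HPPE, a difference that rests on 5 genes. The HPPE count was 2 without DMSO replicate 2 or HPPE replicate 2, 3 without DMSO replicate 1, HPPE replicate 1 or HPPE replicate 3, and 9 without SnPP replicate 2. It was 3 with HPPE replicates 2 and 3 summed into 1 sample. The ZnPP count was 0 without any one of DMSO replicates 1 and 2, HPPE replicate 2, ZnPP replicates 1 and 2 and SnPP replicate 3, and 2 without SnPP replicate 2; the SnPP count was 2 without SnPP replicate 1 and 1 otherwise. The median log2 fold change of the members was -0.05 after HPPE, 0.02 after ZnPP and 0.04 after SnPP, against 0.02, 0.00 and 0.01 over all genes tested. These 3 comparisons share the DMSO libraries. The counts without a library are given without the share of all genes, so they show only how far the calls depend on 1 library.

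**Figure D2:**
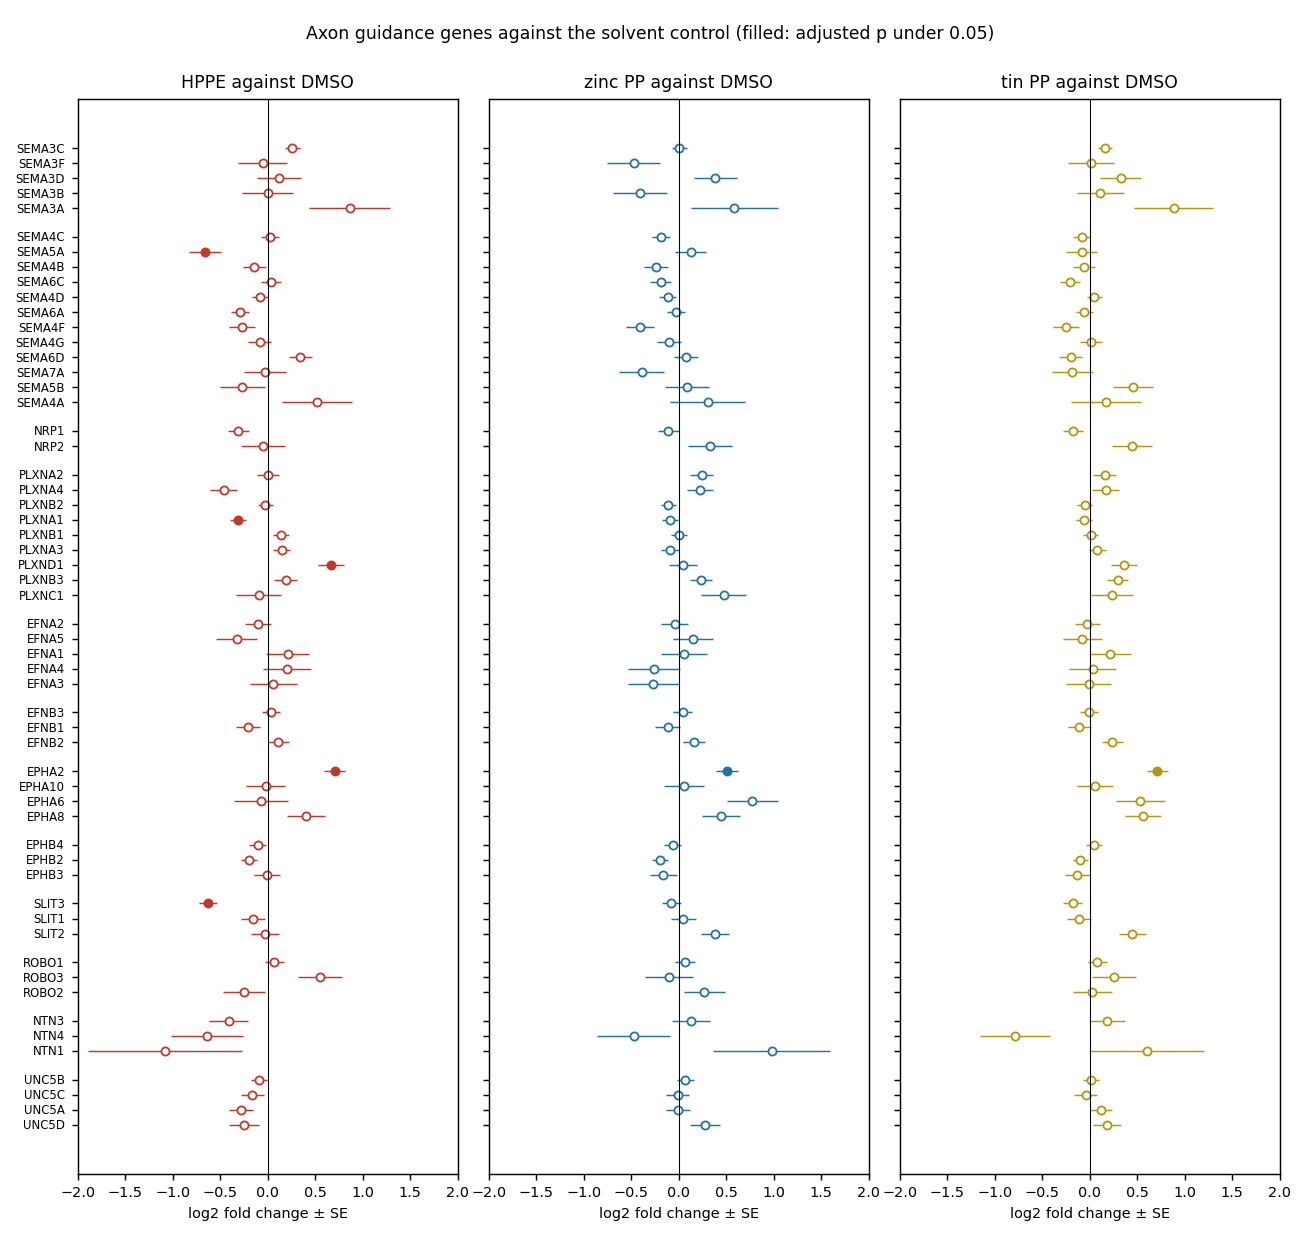
Log2 fold change ± SE of each tested member against DMSO after HPPE, ZnPP (zinc PP) and SnPP (tin PP), with members grouped by class and those called at an adjusted p under 0.05 filled. Most points lie near 0; EPHA2 is filled in each panel, and PLXND1, SLIT3, SEMA5A and PLXNA1 after HPPE only, which is not itself a test of a difference between compounds.

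SLIT3, the most abundant slit gene, fell after HPPE. SLIT3 (chromosome 5, 168661740 to 169301139 in GRCh38.p14) encodes a secreted ligand that repels axons through ROBO receptors. It stood at 721, 658 and 564 CPM in DMSO, at 417, 410.2 and 435 CPM after HPPE, at 588, 615 and 640.5 CPM after ZnPP, and at 514, 642 and 566 CPM after SnPP. The 3 HPPE libraries lay below all 9 others, with no overlap, and the ZnPP and SnPP libraries overlapped those of DMSO. The log2 fold change after HPPE was -0.63 ± 0.10 (SE; 95% interval -0.84 to -0.42), or 1.55-fold lower, with an adjusted p of 0.000987 in edgeR, and the call held in all 23 alternative settings (highest adjusted p 0.0118). After ZnPP it was -0.08 (adjusted p = 0.701 in edgeR) and after SnPP -0.18 (adjusted p = 0.422). In the direct comparisons SLIT3 was lower after HPPE than after ZnPP (-0.55 ± 0.10, adjusted p = 0.00446 in edgeR), also in all 23 settings, and lower than after SnPP (-0.45 ± 0.10, adjusted p = 0.0262). The call against SnPP was lost in 9 settings, 6 of them the omission of 1 library (DMSO replicate 2, any HPPE replicate, SnPP replicate 2 or 3), with fold changes of -0.47 to -0.36 and adjusted p of 0.0535 to 0.171. The antisense genes SLIT3-AS2 and SLIT3-AS1, which overlap SLIT3, held 841 and 55 counts over the 12 libraries, beside 44509 for SLIT3. The counting is not stated to use strand, so it is not known whether reads of these genes were counted for SLIT3.

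The other slit and ROBO genes did not pass the test in any of the 6 comparisons. SLIT2 stood at 18.1, 15.8 and 12.8 CPM in DMSO and at 16.4, 15.03 and 17.1 CPM after HPPE, with values of 20.3 to 21.7 CPM after ZnPP and 18.5 to 25.1 CPM after SnPP. All ZnPP and SnPP libraries of SLIT2 thus lay above all DMSO and HPPE libraries, but its log2 fold change against DMSO was 0.38 (adjusted p = 0.182 in edgeR) after ZnPP and 0.45 (adjusted p = 0.119) after SnPP. SLIT1 had a log2 fold change of -0.16 after HPPE (adjusted p = 0.557 in edgeR). ROBO1, the main slit receptor gene here, stood at 146, 134.5 and 112 CPM in DMSO and at 147, 137 and 134.3 CPM after HPPE, with overlapping groups, and its log2 fold change was 0.07 with a 95% interval of -0.15 to 0.28.

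EPHA2, a receptor tyrosine kinase for A-class ephrins that is expressed in many tumours, rose after each compound. The gene lies on chromosome 1, 16124337 to 16156069 in GRCh38.p14. It stood at 46.8, 38.5 and 53.6 CPM in DMSO, at 72.7, 73.3 and 72.8 CPM after HPPE, at 76.8, 64.6 and 56.4 CPM after ZnPP, and at 74.9, 72.9 and 72.1 CPM after SnPP. Every treated library lay above every DMSO library, with ZnPP replicate 3 closest to the control range. The log2 fold change was 0.70 ± 0.11 after HPPE (95% interval 0.47 to 0.94; adjusted p = 0.000987 in edgeR), 1.63-fold. It was 0.71 ± 0.11 after SnPP (95% interval 0.48 to 0.94; adjusted p = 0.00116), 1.64-fold, and 0.51 ± 0.12 after ZnPP (95% interval 0.26 to 0.75; adjusted p = 0.0284), 1.42-fold. The calls after HPPE and SnPP held in all 23 alternatives, with adjusted p of at most 0.0194 and 0.0297. The ZnPP call was lost in 8 alternatives, 6 of them the omission of 1 library (DMSO replicate 1 or 2, HPPE replicate 2, ZnPP replicate 1 or 2, SnPP replicate 3), where the fold change was 0.37 to 0.55; the lowest, 0.37 with adjusted p of 0.201, was without DMSO replicate 2. Between compounds EPHA2 was not called: HPPE minus ZnPP was 0.20 (95% interval -0.03 to 0.43), HPPE minus SnPP -0.01 (-0.22 to 0.21) and ZnPP minus SnPP -0.21 (-0.43 to 0.02).

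Markers checked the cell type. Of the noradrenergic neuroblastoma genes, HAND2, a transcription factor of sympathetic neurons, lay between 605 and 913 CPM over the 12 libraries, GATA3 between 549.8 and 705 CPM, and DBH, which makes noradrenaline from dopamine, between 318 and 352 CPM. TH, the first enzyme of that synthesis, was at or near 0 in every library, with at most 0.25 CPM. HAND2 stood at 770, 817 and 913 CPM in DMSO and at 712, 684 and 605 CPM after ZnPP, with no overlap. Its HPPE and SnPP libraries overlapped those of DMSO. Of the 9 noradrenergic genes tested, 7 had negative and 2 positive log2 fold changes after each compound. After HPPE 1 of the 9 was called lower, beside 1.47% of all genes, and after ZnPP and SnPP 0 were called. Of 8 mesenchymal neuroblastoma genes 7 exceeded 1 CPM; their sum was 1117 to 1149 CPM in DMSO, 1288 to 1311 after HPPE, 1133 to 1315 after ZnPP and 1314 to 1373 after SnPP. FOSL2 and CD44 were called higher after all 3 compounds, FOSL1 after HPPE and SnPP, and SNAI2 after HPPE only. FN1, TWIST1 and VIM, the most abundant of the list, were not called after any compound. TWIST1 had log2 fold changes of 0.03, -0.11 and 0.07 after HPPE, ZnPP and SnPP. The called mesenchymal markers thus moved in the same direction as EPHA2, and their part in its rise was not tested. Fibroblast genes summed to 425 to 455 CPM in DMSO, 382 to 403 after HPPE, 357 to 388 after ZnPP and 391 to 416 after SnPP. Most of that sum is COL3A1, and the list moved in both directions: 0 of its 6 genes were called after HPPE, 2 higher and 2 lower after ZnPP, and 2 higher and 1 lower after SnPP. COL1A2 lay at 3.19 to 4.10 CPM in DMSO, 5.27 to 7.59 after ZnPP and 6.68 to 7.87 after SnPP. No endothelial or immune gene exceeded a mean of 1 CPM over the 12 libraries, and the glial sum was 3.25 to 7.46 CPM. In such bulk libraries fewer cells of a type and less RNA per cell cannot be told apart.

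Of the other Eph receptors and the ephrins, 1 gene, EPHA6, was called, in 1 comparison. EPHA6, a receptor with few reads here, held 29, 39 and 7 counts in DMSO, 32, 41 and 12 after HPPE, 9, 49 and 76 after ZnPP, and 45, 80 and 36 after SnPP. In CPM its HPPE libraries (3.80 to 4.78) lay below its ZnPP libraries (6.41 to 9.14), and it was called lower after HPPE than after ZnPP (-0.84 ± 0.26, adjusted p = 0.0431 in edgeR). That call was lost in 11 of 23 settings; without ZnPP replicate 3 the value was -0.60 (adjusted p = 0.318), and the other omissions that ended it (DMSO replicate 2, any HPPE replicate, ZnPP replicate 1 or 2, SnPP replicate 3) gave -1.01 to -0.78. Against DMSO the EPHA6 value after ZnPP was 0.77 (adjusted p = 0.134 in edgeR). EPHA8, named after its values were seen, stood at 4.63, 6.47 and 4.47 CPM in DMSO, 6.38, 7.22 and 8.55 after HPPE, 6.78, 7.98 and 6.98 after ZnPP, and 8.09, 7.31 and 8.63 after SnPP. All its ZnPP and SnPP libraries lay above those of DMSO, and its log2 fold changes of 0.40, 0.45 and 0.56 did not pass the test (adjusted p = 0.2997, 0.247 and 0.153 in edgeR). All 4 EPHA members, EPHA2 included, had positive values after ZnPP and after SnPP, with medians of 0.48 and 0.54. Over all 16366 genes tested, 8093 and 8450 had positive values in these comparisons. After HPPE 2 EPHA members had positive and 2 negative values, with a median of 0.19. Only EPHA2 was called among them against DMSO, so no rise of the class is read from these signs. None of the 8 ephrin genes was called in any of the 6 comparisons. EFNB3, a B-class ephrin of neurons, had log2 fold changes against DMSO of 0.04, 0.04 and -0.01 after HPPE, ZnPP and SnPP, and EFNA2 of -0.10, -0.04 and -0.03. EPHB4, a receptor for B-class ephrins, had -0.10, -0.06 and 0.04. EFNA4 (155063740 to 155069553) and EFNA3 (155078837 to 155087538) are neighbours on chromosome 1 and do not overlap. Whether any reads were shared between them was not tested.

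**Figure D3:**
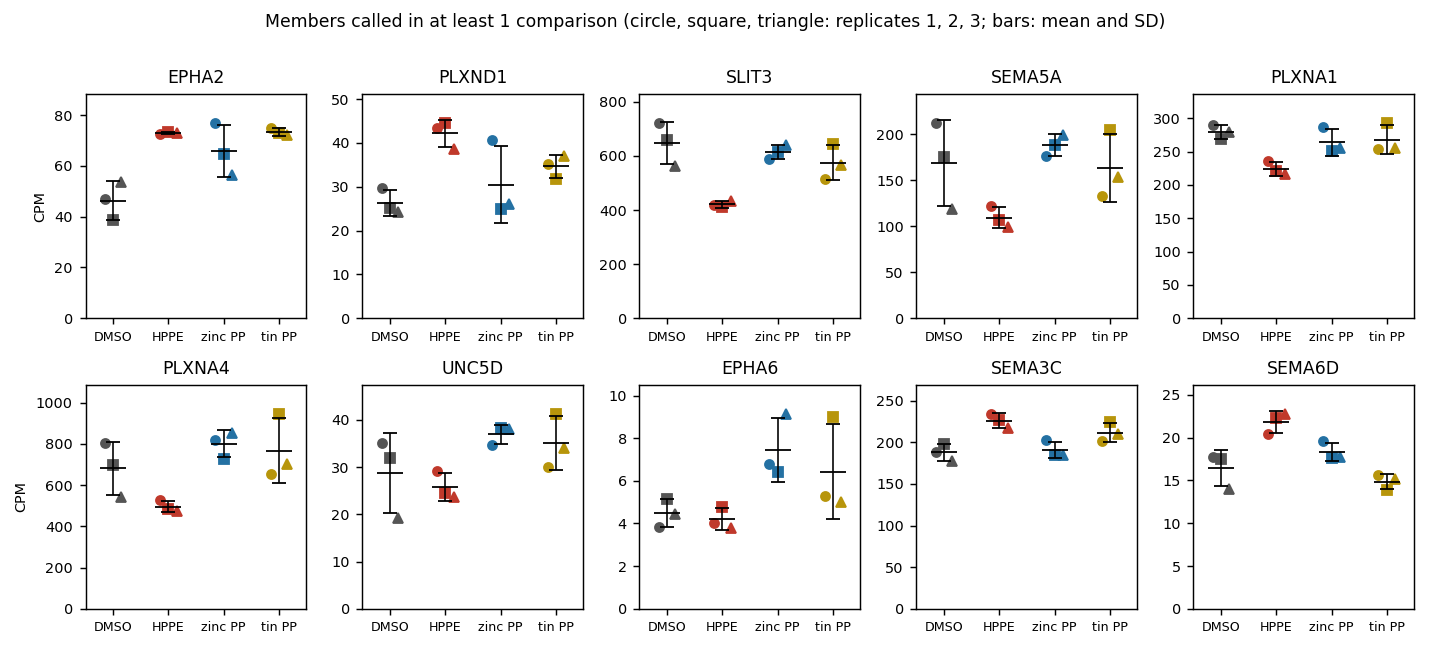
Level in CPM of the 10 members called in at least 1 of the 6 comparisons, for each of the 12 libraries, with the mean and SD of each group and each axis starting at 0. The treated EPHA2 values all lie above DMSO, and the HPPE values of SLIT3 all lie below the other groups.

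Plexins, the semaphorin receptors, moved in both directions after HPPE. PLXND1 (chromosome 3, 129555214 to 129606676), the receptor of SEMA3E, stood at 29.8, 25.1 and 24.2 CPM in DMSO, 43.5, 44.5 and 38.6 after HPPE, 40.7, 24.9 and 25.98 after ZnPP, and 35.2, 31.7 and 37.0 after SnPP. The HPPE libraries lay above the DMSO libraries, and the fitted difference was 0.66 ± 0.14 on the log2 scale (adjusted p = 0.00981 in edgeR), 1.58-fold. The call was lost without DMSO replicate 2 (0.60, adjusted p = 0.0947) and without HPPE replicate 2 (0.62, adjusted p = 0.0691). The SnPP libraries also lay above the DMSO libraries, and below the HPPE libraries. PLXND1 was called neither for SnPP against DMSO nor for HPPE against SnPP. PLXND1 was also higher after HPPE than after ZnPP (0.62 ± 0.14, adjusted p = 0.0141 in edgeR), where ZnPP replicate 1 overlapped the HPPE range; omission of HPPE replicate 2, ZnPP replicate 2 or ZnPP replicate 3 ended that call, with values of 0.51 to 0.57. PLXNA1 (chromosome 3, 126983115 to 127037389), a partner of neuropilins, fell from 290.5, 269 and 279 CPM in DMSO to 236, 220.4 and 217 CPM after HPPE, with no overlap. Its log2 fold change of -0.31 ± 0.08 (adjusted p = 0.0414 in edgeR) lost its call in 11 settings: 8 omissions (all but DMSO replicate 3, ZnPP replicate 1 and SnPP replicates 1 and 2) gave -0.36 to -0.29 with adjusted p of 0.0525 to 0.195.

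PLXNA4 (chromosome 7, 132123340 to 132648688), a receptor for class 3 and class 6 semaphorins, stood at 803, 695 and 544 CPM in DMSO, 526, 486 and 475 after HPPE, 821, 729 and 853 after ZnPP, and 654, 946 and 704 after SnPP. All HPPE libraries lay below those of the other 3 groups. Against DMSO its log2 fold change of -0.46 did not pass the test (adjusted p = 0.071 in edgeR), but it was called in 9 of 23 alternatives: DESeq2, no filter, unscaled library sizes, the compared groups only, the length correction, the library axis as a term, and without DMSO replicate 3, SnPP replicate 1 or SnPP replicate 2. Over all alternatives it lay between -0.59 and -0.34. Against ZnPP it was -0.69 ± 0.14 (adjusted p = 0.00845 in edgeR), and the call was lost without HPPE replicate 2, HPPE replicate 3 or ZnPP replicate 3 (-0.68 to -0.64, adjusted p of 0.0509 to 0.0687). Against SnPP it was -0.63 ± 0.14 (adjusted p = 0.0262 in edgeR), lost in 8 settings, among them the omission of any HPPE replicate or of SnPP replicate 2 (-0.45, adjusted p = 0.0737) or 3. The omissions of an HPPE replicate gave -0.68 to -0.60, and that of SnPP replicate 3 gave -0.70 (adjusted p = 0.0554).

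Among semaphorins, 3 members passed the test in some comparison. SEMA5A (chromosome 5, 9035033 to 9546075), a membrane-bound guidance cue with thrombospondin repeats, stood at 212, 176 and 119 CPM in DMSO, 122, 107 and 99.4 after HPPE, 176, 188 and 199.9 after ZnPP, and 133, 205 and 154 after SnPP. HPPE replicate 1 lay above DMSO replicate 3, so these groups overlapped, and all HPPE libraries lay below all ZnPP and SnPP libraries. The log2 fold change of SEMA5A was -0.66 ± 0.17 against DMSO (adjusted p = 0.0313 in edgeR) and -0.78 ± 0.17 against ZnPP (adjusted p = 0.0115). The first call was lost in 8 settings, including omission of DMSO replicate 1 (-0.47, adjusted p = 0.252), DMSO replicate 2 or any HPPE replicate (-0.75 to -0.60); the second was lost without HPPE replicate 2, HPPE replicate 3 or ZnPP replicate 3 (-0.77 to -0.72).

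SEMA6D (chromosome 15, 47184089 to 47774228), a membrane-bound ligand of PLXNA1 and PLXNA4, stood at 20.4, 22.3 and 22.8 CPM after HPPE and at 15.6, 13.8 and 15.2 CPM after SnPP, with 17.7, 17.6 and 14.04 in DMSO and 19.6, 17.7 and 17.8 after ZnPP. Its HPPE libraries lay above all others, and the difference from SnPP was 0.55 ± 0.12 (adjusted p = 0.0211 in edgeR). This call was lost in 7 settings, among them the omission of HPPE replicate 2 or 3 or SnPP replicate 2 or 3 (0.50 to 0.56, adjusted p of 0.0733 to 0.155). SEMA3C (chromosome 7, 80742538 to 80922389), the most abundant secreted semaphorin here, stood at 189, 198 and 178 CPM in DMSO, 234, 227 and 217 after HPPE, 203, 185 and 185 after ZnPP, and 201, 224 and 209.6 after SnPP. The HPPE libraries of SEMA3C lay above the DMSO and ZnPP libraries; its log2 fold change was 0.26 against DMSO (adjusted p = 0.069 in edgeR) and 0.26 ± 0.08 against ZnPP (adjusted p = 0.0412). The call against ZnPP was lost in 10 settings, 7 of them the omission of 1 library (DMSO replicate 2, any HPPE replicate, ZnPP replicate 2 or 3, SnPP replicate 3), with 0.23 to 0.29 and adjusted p up to 0.203.

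Several low members had large fold changes that did not pass the test. SEMA3A, a secreted repellent of sympathetic axons, stood at 1.19, 1.72 and 1.28 CPM in DMSO and had log2 fold changes of 0.86, 0.59 and 0.88 after HPPE, ZnPP and SnPP (adjusted p = 0.307, 0.516 and 0.332 in edgeR). Without ZnPP replicate 3 the ZnPP value of SEMA3A was -0.0032. SEMA5B, a relative of SEMA5A, had -0.72 for HPPE against SnPP (adjusted p = 0.112 in edgeR). SEMA3B and SEMA3F, secreted class 3 semaphorins, had -0.52 and -0.49 for ZnPP against SnPP (adjusted p = 0.399 and 0.417 in edgeR). Antisense genes overlap both and held 51 and 153 counts, beside 360 for SEMA3B and 386 for SEMA3F. NRP1, the higher of the 2 neuropilins, stood at 82.2, 81.7 and 65.7 CPM in DMSO and at 65.0, 59.9 and 65.2 CPM after HPPE; its groups were separate by a narrow gap, and its log2 fold change of -0.31 did not pass the test.

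In the netrin system no ligand passed the test, and 1 UNC5 receptor did so in 1 comparison. NTN1 held 4, 5 and 2 counts in DMSO, 3, 2 and 1 after HPPE, 2, 3 and 18 after ZnPP, and 5, 12 and 8 after SnPP. Every HPPE library was at or under the floor of 3 counts, and the fitted values of this gene, the largest among the members in 4 comparisons, depend on the prior count and are not read as folds. NTN3, the highest netrin, stood at 20.1, 16.1 and 11.5 CPM in DMSO and at 14.4, 11.3 and 12.98 CPM after HPPE, with overlap. NTN4, a laminin-like netrin, had a log2 fold change of -0.79 after SnPP (adjusted p = 0.336 in edgeR). UNC5D, a receptor that also binds FLRT proteins, stood at 35.2, 31.9 and 19.1 CPM in DMSO, 29.3, 24.5 and 23.7 after HPPE, 34.6, 38.2 and 38.0 after ZnPP, and 30.1, 41.3 and 34.0 after SnPP. Its HPPE libraries lay below all ZnPP and SnPP libraries, and it was called lower after HPPE than after ZnPP (-0.52 ± 0.16, adjusted p = 0.0398 in edgeR). That call was lost in 10 settings, 7 of them the omission of 1 library (DMSO replicate 2, HPPE replicate 2 or 3, any ZnPP replicate, SnPP replicate 3), with -0.55 to -0.47. UNC5B, the highest member, had log2 fold changes of -0.09, 0.07 and 0.01 after HPPE, ZnPP and SnPP.

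The 3 pairs of compounds were compared at 5 µM and 5 h. HPPE and ZnPP differed in 7 of 56 members (12.5%), 2 higher after HPPE (PLXND1, SEMA3C) and 5 lower (SLIT3, PLXNA4, SEMA5A, UNC5D, EPHA6), beside 12.7% of all genes tested, 6.44% higher and 6.26% lower: the members' share was near that of all genes. HPPE and SnPP differed in 3 (5.36%), SEMA6D higher and SLIT3 and PLXNA4 lower, beside 1.45% of all genes, 0.745% higher and 0.709% lower. ZnPP and SnPP, which differ in the metal, differed in 0 of 56 members by edgeR and by DESeq2, with 2 at an unadjusted p under 0.05 in edgeR, beside 0.00611% of all genes. Leaving out 1 library gave 1 call (without HPPE replicate 2 or ZnPP replicate 3) to 14 (without SnPP replicate 2) for HPPE against ZnPP, and 0 (without HPPE replicate 2 or 3 or SnPP replicate 3) to 5 (without SnPP replicate 1) for HPPE against SnPP. The share of all genes called without each library is not given here, so those counts are not read as a trait of guidance genes. The 1 gene called between ZnPP and SnPP was HMOX1. The 95% interval of the ZnPP minus SnPP difference held 0 for 54 of 56 members; for 36 it lay within 0.5 log2 units of 0 on both sides and for 51 within 1. The exceptions were PLXND1 at -0.32 (-0.61 to -0.03; adjusted p = 0.36 in edgeR) and SEMA6D at 0.28 (0.02 to 0.53; adjusted p = 0.36). For SLIT3 the difference was 0.10 with an interval of -0.11 to 0.31. These intervals bound the differences and do not show that the 2 porphyrins act alike.

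In all, 17 calls fell on 10 members, and 46 of the 56 tested members were called in none of the 6 comparisons. Of these 46, the number with a log2 fold change within 0.5 of 0 was 41 after HPPE, 44 after ZnPP and 42 after SnPP, each against DMSO. The 46 were picked for not being called, and the same counts over all genes are not given here. These numbers are therefore a tally and are not read as a trait of guidance genes.

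Members are long transcripts, with a median of 5380 nt against 3327 nt over all genes tested, and fold changes moved with length across all genes. The Spearman correlation of log2 fold change with length across genes, which share the libraries and are not replicates, was -0.24 for HPPE against DMSO and -0.23 for HPPE against ZnPP; among the 56 members it was -0.21 and -0.39. It was -0.11 for HPPE against SnPP (members -0.34), -0.18 for SnPP against DMSO (members 0.0082), 0.09 for ZnPP against DMSO (members 0.33) and 0.25 for ZnPP against SnPP (members 0.35), so the direction differed between comparisons. The 4272 tested genes longer than 5 kb had a median of -0.08 for HPPE against DMSO and -0.14 for HPPE against ZnPP, and 6.18% and 17.1% of them were called in these comparisons, with 2.01% for HPPE against SnPP. Of 33 members longer than 5 kb, 4 were called for HPPE against DMSO, 6 for HPPE against ZnPP and 3 for HPPE against SnPP. SLIT3 (9706 nt), PLXNA4 (13786 nt), SEMA5A (11762 nt), PLXNA1 (9066 nt) and UNC5D (8662 nt) are all of this kind. So are PLXND1 (7094 nt), SEMA6D (6099 nt) and SEMA3C (5174 nt), which were called higher after HPPE in some comparison, while EPHA2 (3964 nt), called higher, and EPHA6 (3971 nt), called lower, are not. With a correction for each library's length trend, which also removes any trend that belongs to a treatment, SLIT3 was -0.31 for HPPE against ZnPP and PLXNA4 -0.35, both still called, whereas PLXNA1 for HPPE against DMSO (-0.22, adjusted p = 0.072 in edgeR) and UNC5D for HPPE against ZnPP (-0.31, adjusted p = 0.0574) were not. SnPP replicate 2 was the highest of its group in 25 of the 33 long members (75.8%; 67.0% of all long genes) and in 4 of the 23 shorter ones (17.4%; 27.7% of all shorter genes). The corrected sizes of the SLIT3 and SEMA5A changes for HPPE against DMSO are not given here, so their folds above are uncorrected. The part of the length trend in the other results was not tested beyond this correction.

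**Figure D4:**
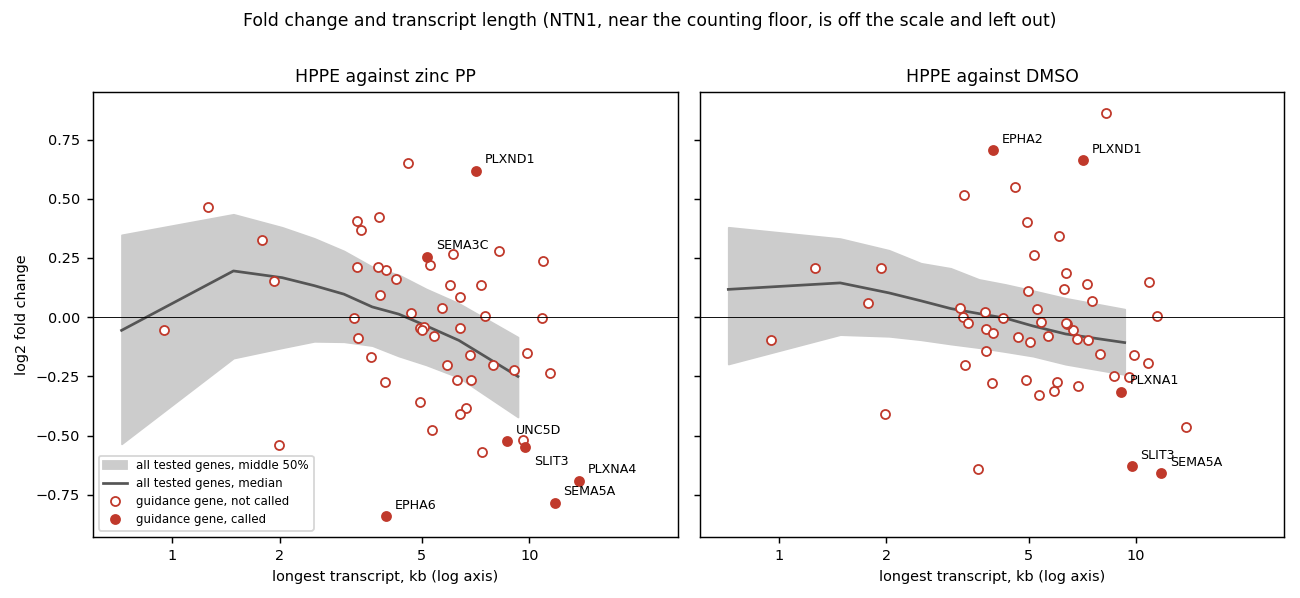
Log2 fold change against transcript length in kb (log axis) for the tested members without NTN1 (points, filled where called), for HPPE against ZnPP (zinc PP, left) and HPPE against DMSO (right), with the median (line) and the middle 50% (band) of all tested genes in 10 bins of length. From the second bin on the line falls, to -0.25 on the left and -0.11 on the right in the longest bin, and SLIT3, SEMA5A and PLXNA4 or PLXNA1 lie below it at the long end, while EPHA6 lies below it at 3971 nt.

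Other genes of the pathway, a list of 91 co-receptors, netrin- and hedgehog-related cues and cytoplasmic effectors, of which 86 were tested, also changed in small numbers. After HPPE 2 were called higher and 4 lower against DMSO (6.98%), after ZnPP 3 higher and 0 lower (3.49%), and after SnPP 3 higher and 1 lower (4.65%); over all genes tested the shares were 4.04%, 2.25% and 2.28%. The list's medians were -0.09, 0.03 and -0.01. RGS3, which links B-class ephrins to G-protein signalling, stood at 7.0, 8.2 and 9.6 CPM in DMSO and at 18.3, 19.2 and 19.9 CPM after HPPE, with no overlap and a log2 fold change of 1.27 ± 0.20 (adjusted p = 0.000954 in edgeR); after SnPP it was 0.87 (adjusted p = 0.0292). MICAL2, of the MICAL family of actin-oxidising enzymes that act downstream of plexins, stood at 19.3, 17.6 and 14.04 CPM in DMSO, 45.2, 37.2 and 43.4 after ZnPP and 32.8, 45.6 and 38.0 after SnPP, with 25.5, 22.9 and 22.8 after HPPE. Its log2 fold change was 1.21 ± 0.14 after ZnPP (adjusted p = 0.000168 in edgeR) and 1.13 ± 0.14 after SnPP (adjusted p = 0.000153), and it was lower after HPPE than after either (-0.79 and -0.70, adjusted p = 0.0033 and 0.00801).

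TRIO, a guanine nucleotide exchange factor that acts below DCC, rose after ZnPP (0.44, adjusted p = 0.0106 in edgeR) and SnPP (0.35, adjusted p = 0.0319), and the cofilin phosphatase gene SSH2 rose after ZnPP (0.46, adjusted p = 0.0248). GPC1, a heparan sulfate proteoglycan, rose after HPPE (0.45, adjusted p = 0.00622 in edgeR). NTNG2, a membrane-anchored netrin relative, fell after HPPE from 57.5, 48.6 and 60.0 CPM to 39.4, 40.7 and 37.4 CPM (-0.47, adjusted p = 0.0106 in edgeR). PTCH1, the hedgehog receptor, fell after HPPE (-0.42, adjusted p = 0.00916 in edgeR) and SnPP (-0.44, adjusted p = 0.00722). DPYSL3, a collapsin response mediator of semaphorin signalling, and SRGAP3, a slit-ROBO GTPase-activating protein, fell after HPPE (-0.33 and -0.58, adjusted p = 0.0265 and 0.0250 in edgeR). Between HPPE and ZnPP 16 of the 86 were called (18.6%), 14 of them lower after HPPE, beside 12.7% of all genes (6.26% lower) and 17.1% of all genes longer than 5 kb; among those lower were the slit-ROBO effectors SRGAP1 and SRGAP3 and the kinases ROCK1 and ROCK2, and RHOA and GPC1 were higher. HPPE against SnPP gave 3 (3.49%, beside 1.45% of all genes), all lower after HPPE, namely MICAL2, NTNG2 (-0.57) and DPYSL3 (-0.34), and ZnPP against SnPP gave 0.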

How the data were processed

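Total RNA of 12 SH-SY5Y libraries was sequenced. The authors deposited 1 table of whole-number read counts per gene. The submitters' processing notes list fastp 0.21.1, STAR 2.7.7a, featureCounts and the build GRCh38; the annotation release and strand setting are not given in the sources used here. The deposited counts were fitted in R 4.3.3 with edgeR 4.0.16: genes with low counts were removed by group (filterByExpr), library sizes were scaled by TMM, and the robust quasi-likelihood fit took all 12 libraries together, with no covariate beyond the group, for 6 two-sided contrasts. P-values were Benjamini-Hochberg adjusted over 16366 genes. The procedure was also run on data simulated from the genes' mean levels, the library sizes and the fitted dispersion. The outcome is not given here, and such data follow the model that the fit assumes. The simulated libraries had no trend with transcript length, so they do not show how the test behaves under such a trend. Standard errors are the fold change over the square root of its F statistic. Lengths are the longest transcript in GENCODE 29, and promoters and positions come from RefSeq, GRCh38.p14. Depth was 1337028 to 9145399 counts.

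Named genes are the members called in any comparison, the 3 with the largest absolute change in each comparison and the highest per length in each class. SLIT1, SLIT2 and EPHA8, whose fold changes are also given, fall outside this rule. The members and lists were chosen with earlier results of these data known, and the motif TGACGTCA was added after the promoters were seen. Alternatives included DESeq2 1.42.0, RLE size factors, unscaled totals, other filters, a replicate term, a length correction by library and omission of each library. No sample was left out of the fit. 1 marker gene of the noradrenergic list, and the list's summed level, are not reported here.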

Additional observations from a re-analysis of the deposited data

How the results depend on the processing

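The number of members called was recomputed in 23 settings. The share of all genes called in each setting is not given here. The counts therefore show only how the calls depend on the processing, and a higher count is not read as a trait of guidance genes. For HPPE against DMSO (5 calls) it was 3 with a replicate block, 3 with HPPE replicates 2 and 3 summed into 1 sample and 10 with the main axis of variation between libraries as a covariate. For ZnPP against DMSO (1 call) it was 0 with the replicate block, 0 with only the compared groups in the fit, 3 with the length correction and 15 with the axis; for SnPP against DMSO (1 call), 3 with the length correction and 10 with the axis. For HPPE against ZnPP (7 calls) it was 4 with the replicate block, 3 with the HPPE pair summed, 18 with the compared groups only and 26 with the axis. For HPPE against SnPP (3 calls) it was 0 with the replicate block, 0 with the compared groups only, 0 with the HPPE pair summed, 6 with the length correction, 7 without a filter and 16 with the axis; for ZnPP against SnPP (0 calls), 5 with the axis. The axis was estimated from the same residuals, so its counts carry no fixed error rate. Leaving out 1 library gave 2 to 9, 0 to 2, 1 to 2, 1 to 14, 0 to 5 and 0 to 1 calls in these 6 comparisons. The lowest counts for HPPE against DMSO came without DMSO replicate 2 or HPPE replicate 2 and the highest without SnPP replicate 2; for HPPE against ZnPP, the lowest came without HPPE replicate 2 or ZnPP replicate 3 and the highest without SnPP replicate 2. Of 683 alternative values of 30 gene results, 578 kept direction and side of the threshold, 94 lost the call, 8 gained one and 3 changed sign, all without ZnPP replicate 3: NTN1 for ZnPP against DMSO (-0.22; -0.22 to 1.60 over all omissions), SEMA3A for ZnPP against DMSO (-0.0032; up to 0.86) and NTN1 for ZnPP against SnPP (-0.81; up to 0.997). The NTN1 values are fitted on at most 18 counts in a library and are not read as folds. Of 18 pairs of same-numbered libraries, 5 correlated above 0.1 in their deviations from the group means, with r from -0.68 to 0.52. Those deviations were centred within groups of 3, and 1 axis held 52.75% of their variance. The pairs therefore cannot show whether the replicate number marks a batch. The cause of the changes in calls was not tested. Depth limits the members under about 2 CPM, where 3 counts are up to 2.24 CPM.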
